A study of Mus musculus with 2 samples.

Results

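The insulin-like growth factor 1 axis and the IGF binding proteins were followed in P0 mouse ureters in which WNT ligand secretion was blocked. The set holds 8 genes, *Igf1*, *Igf1r*, *Igfbp2*, *Igfbp3*, *Igfbp4*, *Igfbp5*, *Igfbp6* and *Igfbp7*, taken by gene name with every probe that the array carries for them. These were 14 of the 39429 probes and 8 of the 29924 gene names. All ureters came from newborn wildtype pups of the NMRI strain and were cultured for 18 h on transwell membranes in medium with fetal calf serum. One group received 5 µM IWP-2, an inhibitor of PORCN, the acyltransferase that lipid-modifies WNT ligands for secretion. The other received the solvent DMSO. Each of the 2 two-colour arrays set 1 pool of treated ureters against 1 pool of control ureters of the same sex. The female array (replicate 1) carried control RNA in the green dye and IWP-2 RNA in the red dye, and the male array (replicate 2) carried them the other way round, so sex and dye orientation cannot be told apart. Each value therefore stands for a whole-ureter pool, in which fewer cells of a type and less RNA per cell cannot be told apart.

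IGF1 is a secreted growth factor that signals through the receptor tyrosine kinase IGF1R to the PI3K-AKT and MAPK cascades and promotes growth, survival and proliferation. In tissue fluid it is largely bound by IGFBPs, a family of secreted proteins that hold the ligand away from the receptor, carry it, or release it when they are cleaved by proteases. Several of them also act on cells without IGF, and mesenchymal cells such as fibroblasts and smooth muscle cells are a known source of both ligand and binding proteins.

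The probes that the results rest on are shown first, since the ligand was read by several of them and their ratios were not equal. *Igf1* had 5 probes, of which 4 were designed on 1 transcript and lie in a block of 6080 bases on chromosome 10 (mm9, plus strand) in which genome and transcript positions run in step. Of these, A_55_P2085984 (chr10:87393561-87393620) and A_55_P2031631 (chr10:87393581-87393640) overlap by 40 bases and so read nearly the same stretch of RNA. The last 30 bases of the former and the first 30 bases of the latter are given 5′ to 3′, with the 20 bases they share in capitals. For the other probes the middle 30 bases are given, for A_55_P2031636 (whole probe at chr10:87395924-87395983) and for A_55_P2085974 (chr10:87399581-87399640), the brightest *Igf1* probe.
Igf1 A_55_P2085984: CATTACAAAGATGGGCATTTcccccaatga
Igf1 A_55_P2031631: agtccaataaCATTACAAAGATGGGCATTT
Igf1 A_55_P2031636: ataagaggtcagctgaccatccacctgctt
Igf1 A_55_P2085974: gaagtggttattcaattcatttatggcaga
The fifth probe, A_55_P2085979 (chr10:87378456-87378515), was designed on another *Igf1* transcript.

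*Igfbp4* had the mean ratio farthest from 1, and *Igfbp6* and *Igfbp7* the widest gaps between arrays, each on a single probe. Their stretches come from chr11:98913334-98913393 (plus strand), chr15:101979852-101979911 (plus strand) and chr5:77778271-77778330 (minus strand) of mm9. Capitals in the *Igfbp7* stretch mark AATAAA, the polyadenylation signal hexamer, which was searched on the probe strand and found in 1 of the 14 probes and in 12.6% of all probes on the array.
Igfbp4 A_52_P257502: attcttggagtgagagagaaagaaagtggt
Igfbp6 A_66_P139546: ctttacacagctagttagaaagattgctgt
Igfbp7 A_55_P2018611: ttaaacaaaacaAATAAAattcttatcaca
Of the *Igfbp2* probes, A_55_P2056729 (chr1:72898677-72898736, plus strand) is shown whole because its first frame reads 19 sense codons and ends in a stop codon (capitals), so it covers the end of an open reading frame.
Igfbp2 A_55_P2056729: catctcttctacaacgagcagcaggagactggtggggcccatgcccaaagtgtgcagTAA

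Promoter windows of RefSeq (GRCm38.p6; 250 bases before to 50 after each start) were found for all 8 genes, in 9 windows. The TCF/LEF core motifs CTTTGAA and CTTTGAT were searched on both strands, and 8.65% of the 32851 windows held at least 1 of them. Among the 9 member windows only that of *Igf1* did, with CTTTGAA starting 186 bases before the start (capitals; chr10:87860899-87860958, plus strand). This is a match of letters and not a measured site.
Igf1 promoter: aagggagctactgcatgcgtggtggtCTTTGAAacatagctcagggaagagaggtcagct

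WNT feedback genes were lower with IWP-2 in both arrays. *Axin2*, a negative regulator of the pathway that is itself a target, gave signals of 181 in control and 42.2 in IWP-2 on the female array. On the male array they were 154 and 46.7. Its mean log2 ratio was −1.91 ± 0.10 (limma, moderated SE, n = 2, adjusted p = 0.000824). Every SE given after ± is limma's moderated SE. *Tcf7*, a nuclear WNT effector, had a mean log2 ratio of −1.36 ± 0.07 (adjusted p = 0.000684). All 7 WNT feedback genes tested were called lower. A mean signal over 100 in either group was reached by 14336 genes, and limma called 127 of these lower and 52 higher at an adjusted p under 0.05. In both arrays, 51 genes were at least 1.5-fold lower and 11 at least 1.5-fold higher.

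None of the 8 members passed the test or the fold filter. All 8 passed the signal filter and were tested. The number called by limma was 0, where 1.25% of all genes tested were called, and the number past 1.5-fold in both arrays was 0, against 0.441% of the 14051 genes with a control signal above 100 in both arrays (0.363% lower and 0.0783% higher). With an unadjusted p under 0.05 there was 1 member, *Igfbp4*, against 12.9% of all genes. The control and IWP-2 signals of the 2 arrays did not overlap for 2 members, *Igfbp4* and *Igfbp3*, and for 31% of all genes. The mean ratio of IWP-2 over control lay between 0.833 for *Igfbp4* and 1.15 for *Igfbp2*. The 95% intervals of the means, from limma's moderated variance, ran from 0.728 to 1.33 over the set, and all 8 intervals lay within a 1.5-fold change in either direction. Their width and every SE after ± rest on variance borrowed from all genes tested, so neither is the spread of the 2 arrays alone. The SD of the 2 arrays' own log2 ratios was 0.35 for *Igfbp7*, 0.31 for *Igfbp6*, 0.22 for *Igfbp2* and 0.17 for *Igfbp4*. With another signal filter, well above background, the SE was 0.19 for *Igfbp7* and 0.17 for *Igfbp6*, against 0.12 and 0.11 here. A change beyond 1.5-fold is thus not excluded by 2 arrays.

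**Figure D1:**
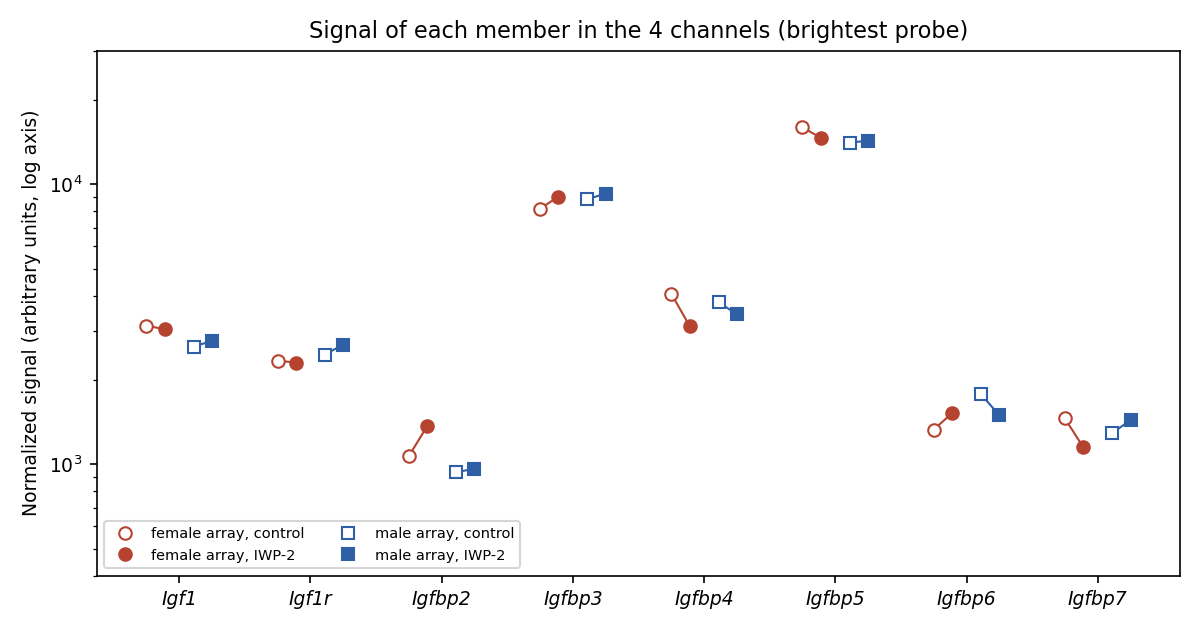
Normalized signal (arbitrary units, log axis) of the brightest probe of each gene in the 4 channels, with open symbols for control, filled symbols for IWP-2, circles for the female array and squares for the male array. Lines join the channels of 1 array; the 2 control and the 2 IWP-2 signals overlap for 6 of the 8 genes, and heights are not comparable between genes because each probe has its own response.

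*Igf1*, the ligand, had a mean ratio close to 1. Its brightest probe read 3129 in control and 3034 in IWP-2 in the female array, and 2632 and 2758 in the male array. The log2 ratios were −0.04 and 0.07, with a mean of 0.01 ± 0.07 (limma, moderated SE, n = 2, adjusted p = 0.995). The 95% interval was 0.897 to 1.13 in fold. The 2 control signals, read on different arrays in different dyes, differed from each other more than either did from its own treated signal. Of all genes tested, 87.9% had a larger absolute mean ratio.

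The other *Igf1* probes were not all equal to it. The overlapping probes had log2 ratios of 0.05 and 0.03 in the female array and of 0.18 and 0.20 in the male array. Their means were 0.12 each, and since they share most of their bases they count as 1 reading. A_55_P2031636 read 339 in control and 423 in IWP-2 in the female array and 360 and 405 in the male array, log2 ratios of 0.32 and 0.17. Its mean of 0.24 ± 0.07 had an unadjusted p of 0.0155 and, adjusted over all probes tested, 0.221. The probe of the other transcript was dim, between 139 and 150 in the 4 channels, with a mean log2 ratio of 0.00. Along the block, the probe nearest to the transcript's 3′ end thus had the smallest mean ratio and the one in the middle the highest. The order was not the same in both arrays, since in the male array the middle probe, at 0.17, lay below the overlapping probes. The middle probe was also the dimmest of the block, and none of the 5 passed the test.

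*Igf1r*, the signalling receptor for IGF1, read 2345 in control and 2307 in IWP-2 in the female array and 2465 and 2675 in the male array. Log2 ratios were −0.02 and 0.12, a mean of 0.05 ± 0.07 (limma, adjusted p = 0.950) with an interval of 0.916 to 1.16 in fold. The brightest *Igf1* probe and the *Igf1r* probe thus both lay just below 0 in the female array and just above 0 in the male. Opposite signs were found for 45.2% of all genes tested. The other *Igf1* probes designed on the same transcript were above 0 in both arrays.

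*Igfbp4*, a binding protein that holds IGFs until the protease PAPPA cleaves it, stood farthest from no change. Its signal was 4065 in control and 3119 in IWP-2 in the female array, and 3793 and 3433 in the male array. Both IWP-2 signals lay below both control signals, which was so for 17% of all genes tested. The log2 ratios were −0.38 and −0.14, a mean of −0.26 ± 0.08 (moderated SE, n = 2). Limma's unadjusted p was 0.0159 and its adjusted p 0.220. Of all genes, 6.91% had a larger absolute mean. The interval in fold, not adjusted for the number of genes, was 0.728 to 0.954. *Igfbp4* was the only member below 0 in both arrays, as were 29.1% of all genes. The tested genes with the most similar pair of ratios were *Gm13889*, *Cobl* and *Camkv*, at Euclidean distances of 0.00218, 0.0143 and 0.0146 over the 2 arrays, and 41 genes lay within 0.05.

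*Igfbp2* and *Igfbp3* were above 0 in both arrays, as were 25.7% of all genes. *Igfbp2*, a binding protein rich in fetal tissues, read 1069 in control and 1369 in IWP-2 in the female array but 937 and 964 in the male array. With log2 ratios of 0.36 and 0.04, most of the mean came from the female array. Its second probe, the one over the stop codon, repeated both values at 0.40 and 0.03, so both probes showed the gap between the arrays. The mean was 0.20 ± 0.09 (limma, adjusted p = 0.454), with an interval of 0.987 to 1.33 in fold.

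*Igfbp3*, the main carrier of IGFs in serum, read 8187 in control and 9030 in IWP-2 in the female array and 8844 and 9270 in the male array. Both IWP-2 signals exceeded both controls, which held for 14% of all genes. The log2 ratios of 0.14 and 0.07 gave a mean of 0.10 ± 0.07 (adjusted p = 0.702). A dim second probe, designed on another transcript and reading 148 to 166, gave 0.07 and 0.16. Their means, 0.10 and 0.12, were close, with spots of the dim probe spread by up to 0.11 (SD, log2 scale).

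*Igfbp5*, a binding protein that attaches to extracellular matrix, read 15978 in control and 14653 in IWP-2 in the female array and 14083 and 14326 in the male array. The log2 ratios of −0.12 and 0.02 gave a mean of −0.05 ± 0.07 (adjusted p = 0.943). *Igfbp5* lies next to *Igfbp2* on chromosome 1 on the opposite strand, and their probes are 5956 bases apart in mm9. The neighbours had opposite signs in the female array, −0.12 and 0.36, and were both near 0 in the male array.

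*Igfbp6* and *Igfbp7* had ratios of opposite sign in the 2 arrays. *Igfbp6*, which binds IGF2 in preference to IGF1, read 1331 in control and 1522 in IWP-2 in the female array, and 1779 and 1496 in the male array. All spots were above 0 in the female array (0.18 to 0.22 in log2) and below 0 in the male array (−0.29 to −0.22). The IWP-2 signals of both arrays were close to each other. The controls, read on different arrays in different dyes, differed by 0.42 in log2, male over female. The mean was −0.03 ± 0.11 (adjusted p = 0.991; 0.014 in log2 when the arrays were centred on their medians), with an interval of 0.817 to 1.18 in fold.

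*Igfbp7*, a matrix-associated member of the wider family with low affinity for IGFs, read 1457 in control and 1150 in IWP-2 in the female array, and 1291 and 1440 in the male array. Its spots were all below 0 in the female array (−0.39 to −0.29) and above 0 in the male array (0.12 to 0.20). The mean was −0.09 ± 0.12 (adjusted p = 0.922), with an interval of 0.770 to 1.14 in fold. The gap between arrays was −0.50 for *Igfbp7* and 0.44 for *Igfbp6*, female minus male, and 2.23% and 3.16% of all genes had a wider one. *Igfbp2* came next in the set with 0.32, exceeded by 8.02% of genes. In all, 5 of the 8 members, each read on its brightest probe, had opposite signs in the 2 arrays, against 45.2% of all genes. For *Igf1*, 1 of the 5, this depends on the probe, as described above.

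**Figure D2:**
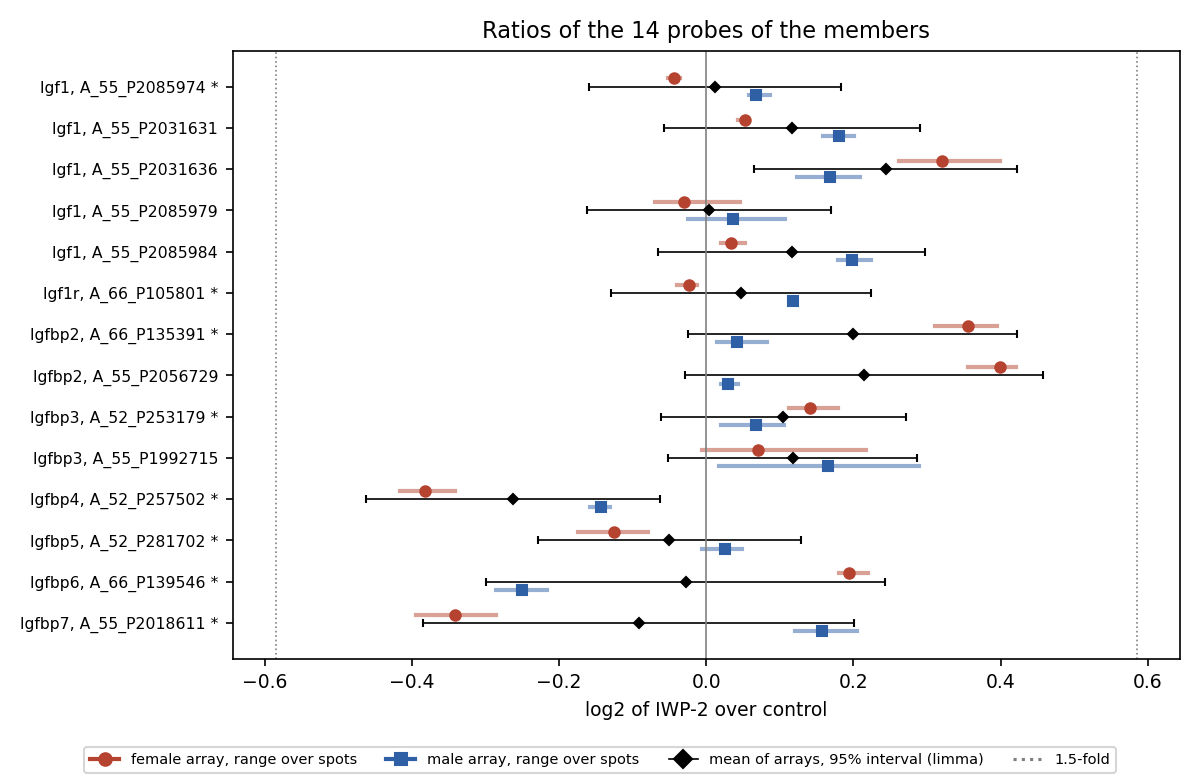
Log2 ratio of IWP-2 over control for the 14 probes, with circles for the female array, squares for the male array, pale bars for the range over the spots of a probe (3 or 4 per array) and diamonds with whiskers for the mean of the arrays and its 95% interval in the fit over all probes; asterisks mark the probe that stands for the gene and dotted lines a 1.5-fold change. No probe reaches the dotted lines in either array, and the bars of *Igfbp6* and *Igfbp7* lie on opposite sides of 0 in the 2 arrays.

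The SD over spots ranged from 0.004 to 0.11 on the log2 scale over the 14 probes and both arrays, which covers printing and hybridization on 1 array only. Between arrays, each of which is a separate pair of pools, the difference in log2 ratio had an SD of 0.21 over all genes tested, and the ratios of the 2 arrays correlated across genes with r = 0.44, as a description over genes that share the same 2 libraries. The number of arrays, not the spots, limited the precision. The median mean log2 ratio was −0.01 for the members and −0.01 for all genes tested.

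**Figure D3:**
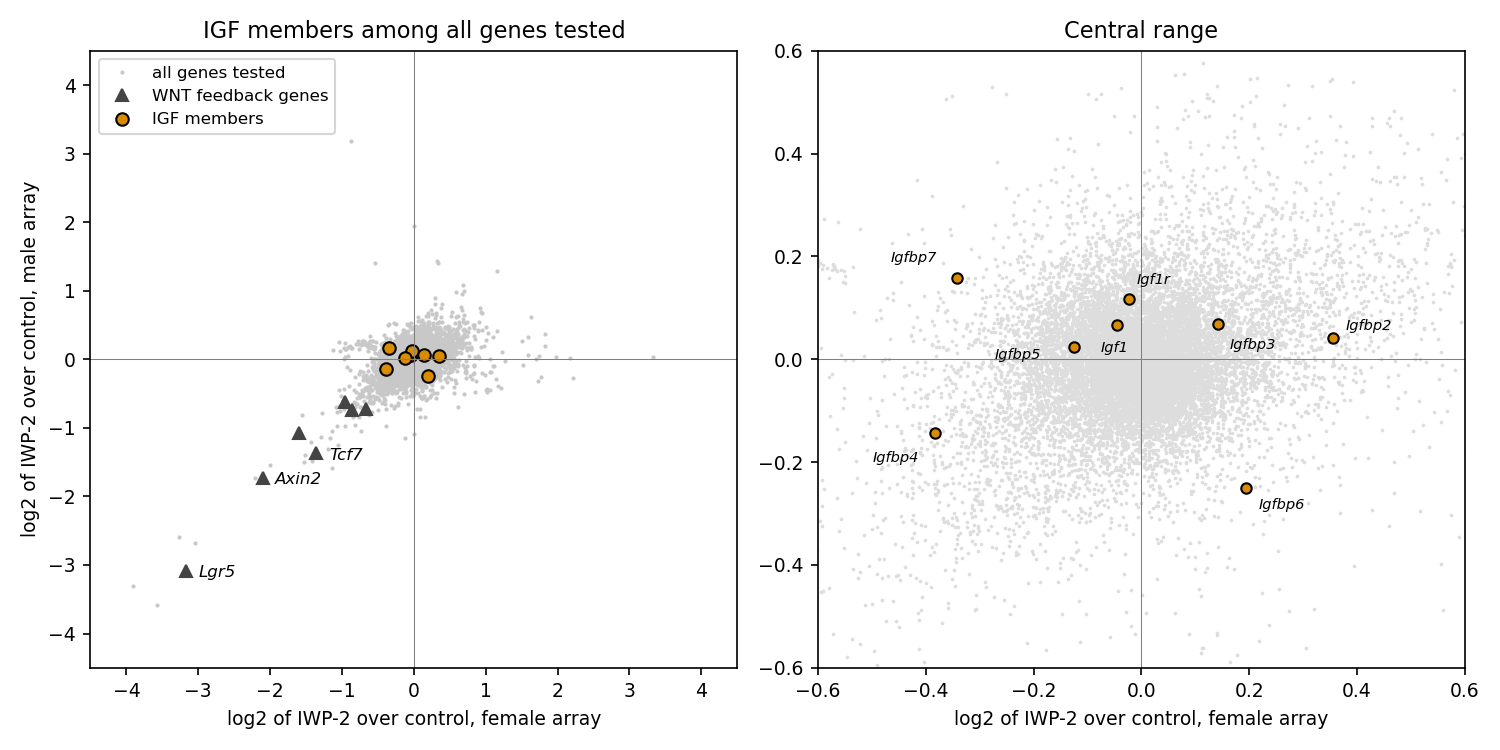
Log2 ratio of IWP-2 over control in the female array (x axis) against the male array (y axis) for the 14336 genes tested (grey), the WNT feedback genes (triangles) and the 8 members (orange), with the central range enlarged on the right. The members lie inside the cloud of all genes, *Igfbp4* alone in the lower left quadrant, while the WNT feedback genes lie along the diagonal away from it.

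The rest of the pathway was read from a list of 36 genes in 5 groups, of which 28 passed the signal filter. Limma called 2 of them lower and 0 higher, against 0.886% and 0.363% of all genes tested, and 0 passed 1.5-fold in both arrays. An unadjusted p under 0.05 was found for 8 of the 28 (28.6%), against 12.9% of all genes tested, and the median of their mean log2 ratios was −0.05. *Htra1*, a secreted serine protease that cleaves IGFBPs and matrix proteins, read 2975 in control and 2066 in IWP-2 in the female array and 2809 and 2161 in the male array. Its mean log2 ratio was −0.45 ± 0.07 (adjusted p = 0.0468). *Stat5a*, a transcription factor downstream of growth hormone and cytokine receptors, read 459 and 344 in the female array and 513 and 382 in the male array, a mean of −0.42 ± 0.07 (adjusted p = 0.0447). Both were just under the threshold. *Htra1* lost the call under 10 and *Stat5a* under 8 of 12 other ways of processing, for example when the arrays were centred on their medians in place of loess (adjusted p = 0.0584 and 0.0576), with means from −0.45 to −0.41 and from −0.43 to −0.38 over the 12. With no filter on dim genes or with well above background, limma called 0 of all genes, so neither call could be kept there. *Htra1* and *Stat5a* were each read by 1 probe.

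Among the other IGF family genes, 3 of 8 were bright enough to test, 0 were called by limma and 1 had an unadjusted p under 0.05, *Igf2r*. *Igf2r*, the scavenger receptor that takes IGF2 to lysosomes, read 7620 in control and 5684 in IWP-2 in the female array and 6458 and 5477 in the male array. Its mean log2 ratio of −0.33 ± 0.08 had an adjusted p of 0.123. *Igf2*, the fetal growth factor, had a mean of −0.13 ± 0.07 (adjusted p = 0.624) and *Insr*, the insulin receptor, one of 0.03 ± 0.07 (adjusted p = 0.975). *Igfbp1*, a binding protein best known from liver and decidua, was not tested, as its signal lay between 19.4 and 23.3, near the floor of 15.

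Of the IGFBP proteases and their inhibitors, 5 of 6 were tested and *Htra1* was the 1 called. *Pappa*, the metalloprotease that cleaves IGFBP4, had log2 ratios of −0.29 and 0.18, a mean of −0.06 (adjusted p = 0.977). Its paralogue *Pappa2* had −0.22 and 0.17 (adjusted p = 0.991). Both thus had opposite signs in the 2 arrays, as did 45.2% of all genes tested. A relation to *Igfbp4*, which was below 0 in both arrays, was not tested. *Stc1*, which encodes an inhibitor of PAPPA, was at 0.17 and 0.09 (mean 0.13, adjusted p = 0.548), and its relative *Stc2* was too dim to test.

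In the growth hormone group all 4 genes were tested and *Stat5a* was the 1 called. *Ghr*, the growth hormone receptor, had a mean log2 ratio of 0.02 (adjusted p = 0.991). Of 15 receptor adaptor and PI3K-AKT-FOXO genes, 13 were tested, 0 were called by limma and 4 had an unadjusted p under 0.05 (12.9% over all genes). *Grb10*, an adaptor that restrains insulin and IGF1 receptor signalling, read 398 in control and 558 in IWP-2 in the female array and 318 and 377 in the male array, a mean of 0.37 ± 0.08 (adjusted p = 0.115). The receptor substrates *Irs1* and *Irs2* were at −0.13 (adjusted p = 0.679) and 0.28 (adjusted p = 0.214). All 3 IGF2 mRNA binding proteins were tested and 0 had a p under 0.05 even before limma's adjustment, with means between −0.15 and −0.03.

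**Figure D4:**
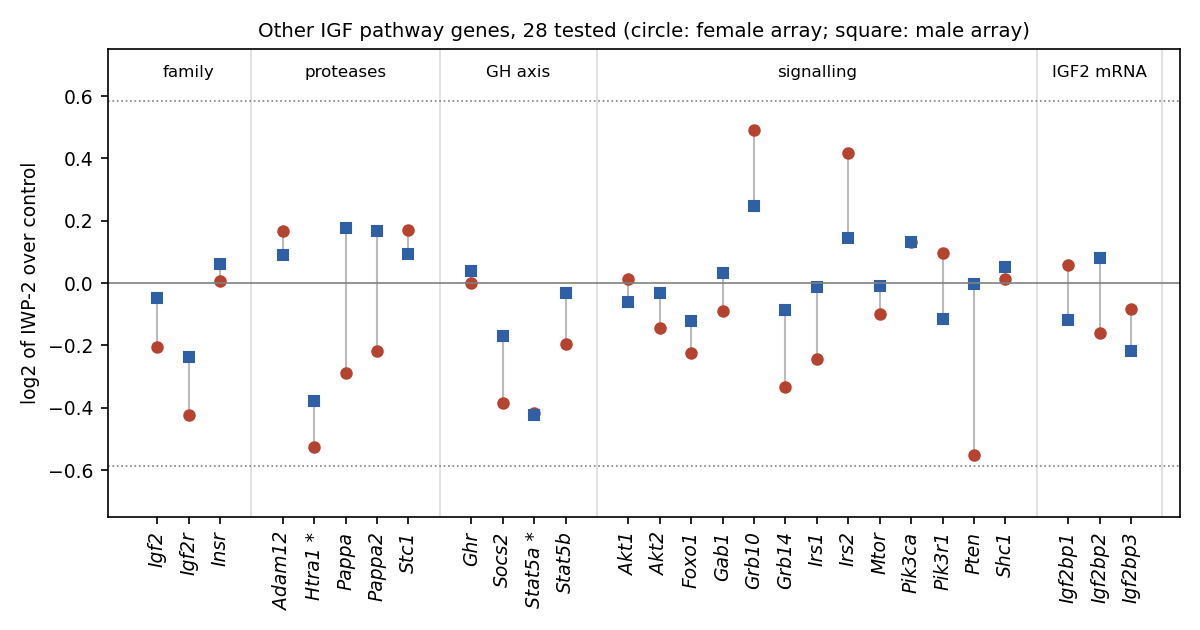
Log2 ratio of IWP-2 over control of the 28 pathway genes tested, in 5 groups, with circles for the female and squares for the male array, dotted lines at a 1.5-fold change and asterisks on the 2 genes called by limma. *Htra1* and *Stat5a* lie below 0 in both arrays, while *Pappa* and *Pappa2* lie on opposite sides of 0.

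Of the markers of the cell types of the ureter, limma called 1, *Aldh1a2*, which is 1 of 6 tested in its list. Limma called 1.25% of all genes tested. The 6 urothelial markers had a median log2 ratio of 0.44 in the female and 0.13 in the male array, 5 of them above 0 in both, with 0 called by limma and 4 at an unadjusted p under 0.05 (12.9% over all genes). Their summed signal went from 84832 to 110849 in the female array and from 103611 to 111508 in the male array. The ratio of *Igfbp2* was also the higher one in the female array, as were those of *Igfbp3* and *Igfbp6*. The 6 markers of ureteric mesenchyme and lamina propria had medians of −0.25 and −0.01, with summed signals of 69172 in control and 57551 in IWP-2 in the female array and 61910 and 62516 in the male array. Of these 6, 3 were below 0 in both arrays and 1 (*Tbx18*, at 0.12 and 0.37) was above 0 in both. The other 2, *Col1a1* and *Col1a2*, had opposite signs, and 3 of the 6 had an unadjusted p under 0.05 (limma). *Col1a1* and *Col1a2* were the brightest, at 24419 and 25302 in control of the female array. They made up most of the summed signal, which thus says little of the other markers. *Aldh1a2*, the retinoic acid synthesis enzyme that marks lamina propria fibrocytes, was at −0.76 and −0.50 (limma, adjusted p = 0.0280). *Thy1* was at −0.60 and −0.37 and was not called (limma, adjusted p = 0.0547). *Igfbp4* also had its lower ratio in the female array, as did *Igf1*, *Igf1r*, *Igfbp5* and *Igfbp7*, so this is not particular to *Igfbp4*. Over all genes tested the log2 ratios had an SD of 0.22 in the female and 0.17 in the male array. The part of the cell types in the ratios of *Igfbp2* and *Igfbp4* was not tested.

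The markers listed for fat cells did not share 1 pattern, and which cells gave the signal of *Fabp4* was not tested. *Fabp4*, the brightest, was above 0 in both arrays (0.25 and 0.28), while *Adipoq* had opposite signs in the 2 arrays (−0.55 and 1.40). *Cfd* read 274 in control and 150 in IWP-2 in the female array and 19.7 and 180 in the male array, where the control lay near the floor, and *Plin1* was too dim to test at 15 to 32.7. The summed signal of the 3 adipocyte markers tested of 5 ranged from 12474 to 12538 in control and from 14584 to 15426 in IWP-2. Nearly all of it was *Fabp4*, at 11964 and 12388 in control and 14228 and 15071 in IWP-2. The sum thus says little of *Adipoq* and *Cfd*, and *Lep* was at the floor in all 4 channels. Smooth muscle markers had medians of 0.01 and 0.24, endothelial markers −0.06 and 0.07, and macrophage markers 0.14 and 0.12, each over 6 genes with 0 called by limma. At an unadjusted p under 0.05 were 1, 1 and 2 of them, against 12.9% of all genes tested. Of 6 kidney tubule and podocyte markers 0 were bright enough to test, and *Nphs1*, *Umod* and *Slc12a1* were at the floor throughout. The part of the cell types in the ratios of *Igfbp6* and *Igfbp7* was not tested.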

How the data were processed

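The authors labelled amplified RNA of control and IWP-2 pools with 2 dyes and hybridized each pair to 1 Agilent mouse array. The intensities in the deposited array files are processed signals of Feature Extraction (12.2.0.7 per the file headers, 10.7.3.1 in the submitters' processing notes), background-subtracted and dye-normalized. The deposited series table holds a score per probe and array, a signed fold change with 1 decimal, with a column median of 1 in both; its direction and scale were found against the arrays (r = 0.94 and 0.92 with the log2 ratios over 39429 probes), and its centring stays unknown. Other columns of per-sample values numbered 0.

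Control spots and outlier spots were left out, no spot was saturated, and signals were normalized by loess within each array (limma 3.58.1, R 4.3.3), averaged over spots, floored at 15 and expressed as log2. A gene stands by its brightest probe. Genes with a mean signal above 100 in control or IWP-2 were tested with lmFit and eBayes on the 2 log2 ratios against 0, with 1 residual degree of freedom and Benjamini-Hochberg adjustment over all 14336 genes. Control and treated pools of a number share array and sex, so the ratio pairs them by construction. The fold filter asked for a control signal above 100 and 1.5-fold in both arrays. Probe coordinates are mm9, as in the array files.

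Named are all members, genes of the pathway list that were called and a set list of the others, *Axin2* and *Tcf7*, and markers by list. *Aldh1a2*, *Thy1*, *Tbx18*, *Col1a1*, *Col1a2*, *Fabp4*, *Adipoq*, *Cfd*, *Plin1*, *Lep* and the kidney markers were chosen after their values were seen. One further marker list is not reported here. Members and lists were chosen with earlier results of these data known. The steps were run on simulated data whose spread between arrays was set below that of these data, so the fit was not tested at the spread found here. Alternatives covered background, normalization, floor, filters, probe summary, pairing, the series table, the fold threshold and each replicate.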

Additional observations from a re-analysis of the deposited data

Results flagged for a closer look

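In 4 members all spots of the brightest probe lay on one side of 0 in the female array and on the other side in the male array. The log2 ratio of the female minus that of the male array was −0.11 for *Igf1*, −0.14 for *Igf1r*, 0.44 for *Igfbp6* and −0.50 for *Igfbp7*. With 1 array per sex this difference was not tested, and sex and dye orientation cannot be told apart. For *Igf1* the other probes designed on the same transcript were above 0 in both arrays. Wider gaps than those of *Igf1* and *Igf1r* were found in 46.6% and 36.3% of all genes tested.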

How the results depend on the processing

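The mean log2 ratios of the 8 members were recomputed under 12 other settings with both arrays, 96 values in all. Of these, 94 kept their direction and their side of the threshold, but much of this was fixed in advance. A lower floor, the other signal filters, each probe as a feature and unpaired channels left the members' mean ratios as they were, so no direction could turn there. With no filter on dim genes or with well above background, 0 of all genes were called, so no member could pass. *Igfbp6* turned to 0.014 (adjusted p = 0.976) with median centring, and *Igfbp3* passed the test in the series table's values at 0.14 (adjusted p = 0.0163), the 1 member called there. Its SE there was 0.0016, because its values were equal in both arrays at 1 decimal, as were those of 5009 genes. *Igfbp4* ranged from −0.26 to −0.22 over the settings that kept both arrays, with adjusted p from 0.212 to 1. Without replicate 1 or 2 each ratio is the other array's own, given above, with no test, and 5 of the 8 members changed sign with 1 of the arrays left out.

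Limma's calls over all genes numbered 117 with no normalization within arrays, 427 with normexp background, 109 with the mean over a gene's probes and 1321 in the series table, where 5009 genes had equal values in both arrays at 1 decimal. They were 0 with no filter on dim genes and 0 with the well above background filter, where 11753 and 1285 genes had equal ratios in both arrays. The share of calls that were higher was 29.1%, and 44% with median centring (108 lower, 85 higher), 39.8% with normexp and 47.2% in the series table. Without the replicate block, as 4 unpaired channels, 8 genes were called, with 0 of the IGF pathway list and 2 of the WNT feedback genes, and 0 members. Past the fold filter were 114 genes with no filter on dim genes, 114 with well above background, 19 at a fold of 2 (4 of them WNT feedback genes), and from 103 to 272 with 1 array, 103 without replicate 1 and 272 without replicate 2. The members past it stayed at 0 under each of these.

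Of the IGF pathway list, 1 gene was called with outlier spots kept, and 0 with no normalization, median centring, a signal above 50, no filter, well above background, the mean over probes or each probe as a feature. The values of the series table gave 3 calls, 1 lower and 2 higher, so the balance of directions turned there. The WNT feedback genes called were 3 in the series table, and 0 with no filter or with well above background. Of *Axin2*, 3 of 12 other settings lost the call, among them no filter and well above background, where 0 of all genes were called. The causes of these shifts were not tested beyond the counts given. The number of arrays limits the precision of all values, and signals near the floor of 15 carry no ratio.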
